A study of Mus musculus with 15 samples.

Results

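The colony-stimulating factors and their receptors are the cytokine system that makes, feeds and tunes mononuclear phagocytes. Here the group was defined by gene symbol, without use of the measured values, as 4 ligand genes (Csf1, Csf2, Csf3 and Il34) and 5 receptor chain genes (Csf1r, Csf2ra, Csf2rb, Csf2rb2 and Csf3r). Earlier results of these data were known when the group was chosen. All 9 genes were found among the 28347 genes of the steady-state table and among the 48709 genes of the surgery table. RNA sequencing covered 15 libraries of sorted cells from C57BL/6 mice, 3 in each of 5 groups. In the steady state, 2 macrophage populations had been sorted from visceral adipose tissue, CX3CR1-high CCR2-high cells (termed CCR2-high) and CX3CR1-low CCR2-low cells (termed CCR2-low), beside blood cells labelled monocytes. The surgery groups held CCR2-low macrophages of the same fat, either after myocardial infarction (MI) or after sham surgery (Sham), for which the treatment label reads no myocardial infarction. The sources used here do not give ages, cell numbers, gates, pooling of animals or the time after MI, and no group is labelled with a genetic change. Since no label says that replicates came from separate animals, p-values measure only the spread between these samples.

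CSF1 (M-CSF) and IL-34 are alternative ligands of CSF1R, a receptor tyrosine kinase that macrophages depend on for survival. GM-CSF, the product of Csf2, binds a specific alpha chain (Csf2ra) that signals with a beta chain (Csf2rb) shared with the receptors of IL-3 and IL-5, through JAK2 and STAT5; mice carry an additional beta chain gene, Csf2rb2, whose product serves the IL-3 receptor. G-CSF, the product of Csf3, acts through CSF3R, which is best known from neutrophils and their precursors. Adipose tissue macrophages are maintained by CSF1 receptor signalling, and GM-CSF is best known in tissue macrophages for the maturation of alveolar macrophages.

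Csf2rb and Csf2rb2 are neighbours on chromosome 15, on opposite strands and 20.0 kb apart, and their coding sequences are nearly alike, so the extent of the likeness bears on every value of either gene. Over 2628 aligned coding positions without gaps the pair differed at 125, an identity of 95.2%, and the longest identical run was 242 bases. Of all 50-base coding windows, 26.2% of those of Csf2rb and 26.6% of those of Csf2rb2 occurred in the other gene, and of 100-base windows 11.0% and 11.3% did. The sources used here do not say how the authors' counting treated reads that match both genes, so the split between this pair is uncertain. The most different 90-base coding stretch, with the 16 mismatched bases in capitals and positions counted from the first base of the coding sequence, shows where reads can be told apart, at positions 308 to 397 of Csf2rb and 311 to 400 of Csf2rb2.
Csf2rb: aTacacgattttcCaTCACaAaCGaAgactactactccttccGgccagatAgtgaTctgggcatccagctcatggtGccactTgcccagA
Csf2rb2: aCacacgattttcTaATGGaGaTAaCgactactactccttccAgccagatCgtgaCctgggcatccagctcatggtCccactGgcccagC
A stretch within the longest identical run, at positions 2158 to 2247 of both genes and with 0 mismatches, shows where they cannot.
Csf2rb and Csf2rb2: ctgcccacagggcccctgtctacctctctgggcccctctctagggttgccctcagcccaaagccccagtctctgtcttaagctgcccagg

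The promoters of 2 receptor chains are shown because these chains moved in opposite directions between macrophages and the labelled monocytes, while both windows hold the purine-rich motif of PU.1, the transcription factor of myeloid cells that is known to bind the promoters of CSF receptor genes. Both sequences are the 250 bases before the RefSeq gene start on GRCm38.p6, written 5′ to 3′ on the gene's strand. Promoter windows were searched for 5 of the 9 genes, namely Csf1, Csf2, Csf2ra, Csf2rb2 and Csf3r. The promoter of Csf1r was left out of the search, so nothing is said of its motifs.
Csf2ra, chr19:61228419-61228668, minus strand: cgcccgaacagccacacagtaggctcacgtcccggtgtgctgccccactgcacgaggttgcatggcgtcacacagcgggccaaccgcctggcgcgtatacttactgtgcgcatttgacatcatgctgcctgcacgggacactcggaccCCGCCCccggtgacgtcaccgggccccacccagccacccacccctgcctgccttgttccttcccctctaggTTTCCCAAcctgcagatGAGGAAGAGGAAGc
Csf3r, chr4:126024409-126024658, plus strand: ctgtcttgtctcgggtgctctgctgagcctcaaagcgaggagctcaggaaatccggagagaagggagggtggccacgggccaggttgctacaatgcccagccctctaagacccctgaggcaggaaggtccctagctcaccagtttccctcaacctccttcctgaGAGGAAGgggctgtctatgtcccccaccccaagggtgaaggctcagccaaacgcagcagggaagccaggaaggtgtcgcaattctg
Capitals mark matches, on either strand, to the PU.1-type motif GAGGAAG, the GC box GGGCGG and the C/EBP motif TTNCNNAA. Counted from the RefSeq start, Csf2ra held GAGGAAG at -14 to -8 and at -8 to -2, where both matches share a base, and Csf3r held it at -86 to -80. In GENCODE M21 on GRCm38, Csf3r starts at 126024550, so the Csf3r match lies inside that gene model. Csf2ra starts there at 61228429, so its match at -8 to -2 lies inside the gene model and the other match spans that start. Csf2rb2 held the motif on the opposite strand at -168 to -162, and the windows of Csf1 and Csf2 held none. The Csf2 window, at 54249900 to 54250149 on the minus strand, does not reach the GENCODE start at 54249667. The bases directly before that start were therefore not searched for any motif. Of all 32851 promoter windows of this length, 10.6% held GAGGAAG, 32.7% the GC box and 36.8% the C/EBP motif. The AP-1 motif TGANTCA, in 6.75% of windows, and TATAAA, in 12.4%, matched none of the 5 members' windows.

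The labels were checked against cell type markers before the members were read. Ccr2 lay at 436 to 471 TPM (a transcript's length-corrected share of its library) in CCR2-high and 66.3 to 83.2 TPM in CCR2-low libraries, and 10 macrophage markers summed to 12190 to 14770 and 16320 to 18840 TPM. The libraries labelled blood monocytes held 66.9 to 86.3 TPM of macrophage markers, with Timd4 and Lyve1 at 0, but 25600 to 30920 TPM of 10 granulocyte precursor markers and 3221 to 4061 TPM of 9 mast cell, basophil and eosinophil markers. These precursor markers summed to 3.76 to 15.9 TPM in the macrophage libraries. The 10 monocyte markers summed to 6797 to 7981 TPM in the labelled monocytes, although 3 of them averaged under 1 TPM there. Their sums were 1999 to 2375 TPM in CCR2-high and 1176 to 2688 TPM in CCR2-low. Gene by gene the picture differed: by limma, CCR2-high exceeded labelled monocytes in 7 of the 10 markers and fell below in 3 (median log2 difference 2.13). CCR2-low exceeded them in 4 and fell below in 5 (median -0.95). Testing required 1 TPM in at least 3 libraries, which 3 of the 7 and 2 of the 4 reached through macrophages alone. Ccr2 was at 54.8 to 65.8 TPM in the libraries labelled monocytes, and Xist, listed at 0 in every steady-state macrophage library, was at 15.5 to 22.3 TPM there, while the Y-linked Ddx3y was at 43.6 to 61.1 TPM in the macrophages and at 0.0105 to 0.0128 TPM in the labelled monocytes. The cells of these libraries are therefore called labelled monocytes throughout, and differences from them cannot be told apart from the differences in cell content and sex transcripts. The Sham libraries, labelled CX3CR1-low, held Cx3cr1 at 18.1 to 25.6 RPKM (reads per kilobase of gene, scaled to library depth), and the MI libraries held it at 5.11 to 18.9 RPKM. Ccr2 lay at 31.5 to 41.4 RPKM in Sham and at 8.09 to 27.4 RPKM in MI, without overlap. Xist was at 5.80 to 6.85 RPKM in Sham and at 3.17 to 8.02 RPKM in MI, with Ddx3y at 0 in both. The sex transcripts of the surgery libraries were thus opposite to those of the steady-state macrophages.

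Among the ligands, Csf1 was expressed at low levels in both macrophage groups and at higher levels in the labelled monocytes. Its levels were 0.642, 1.90 and 1.69 TPM in CCR2-high replicates 1 to 3, 2.54, 3.26 and 3.33 TPM in CCR2-low, and 9.67, 6.22 and 7.18 TPM in labelled monocytes. The 3 groups did not overlap, in the order CCR2-high, CCR2-low, labelled monocytes. The gene (ENSMUSG00000014599, chromosome 3, 107741048 to 107760469, minus strand, GENCODE M21 on GRCm38) was lower in CCR2-high than in CCR2-low by a log2 difference of -0.78 (SE 0.229, limma adjusted p = 0.0387), on the log2(TPM + 1) scale used for every steady-state difference here. Against labelled monocytes, Csf1 was lower in CCR2-high by a log2 difference of -1.87 (SE 0.229, limma adjusted p = 1.87e-05) and in CCR2-low by -1.09 (SE 0.229, adjusted p = 0.00108). The call between the macrophage subsets was lost in 9 of 16 alternative settings, and leaving out 1 library at a time gave adjusted p-values of 0.0288 to 0.131. Between the macrophage subsets, markers of stromal cells moved the same way as Csf1. Endothelial markers summed to 39.2 to 65.2 TPM in CCR2-high and 148 to 162 TPM in CCR2-low. All 8 of 8 tested were lower in CCR2-high, where 8.74% of all genes tested were lower. Of 7 tested fibroblast markers 6 were lower in CCR2-high, their sums running from 182 to 244 TPM in CCR2-high and from 233 to 405 TPM in CCR2-low. Of the 8 fibroblast markers, 3 averaged under 1 TPM in CCR2-high and 0 in CCR2-low. The filter of 1 TPM in at least 3 libraries may therefore have fixed the direction of some of the 6. In labelled monocytes, where Csf1 was highest, fibroblast markers summed to 10.4 to 13.9 TPM and endothelial markers to 34.9 to 45.3 TPM. The part of these markers in the Csf1 differences was not tested, and in these bulk libraries fewer cells of a type and less RNA per cell cannot be told apart.

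Il34 was close to the limit of measurement. It was listed at 0.253, 0.0491 and 0.535 TPM in CCR2-high libraries, at 0.639, 1.04 and 0.952 TPM in CCR2-low libraries, and at 0 in all 3 labelled monocyte libraries. Worked back from the TPM steps, the macrophage values came to about 26, 4 and 52 reads in CCR2-high and 52, 105 and 77 in CCR2-low, rounded from numbers that were not whole within 0.05. The macrophage groups did not overlap, but the gene (chromosome 8, 110741829 to 110805924, minus strand) missed the filter of 1 TPM in at least 3 libraries and was not tested. Without that filter the log2 difference between CCR2-high and CCR2-low was -0.57 (SE 0.14, limma adjusted p = 0.0493 over 28347 genes). The fibroblast and endothelial markers given beside Csf1 were also lower in CCR2-high, and their part in the Il34 values was not tested.

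Csf2, the gene of GM-CSF, ran opposite to Csf1 between the macrophage subsets. CCR2-high libraries held 2.27, 2.41 and 1.58 TPM, CCR2-low libraries 1.17, 1.14 and 0.583 TPM, and the labelled monocytes were listed at 0. Those values stand for 44, 40 and 29 reads in CCR2-high and 18, 22 and 9 in CCR2-low. All CCR2-high libraries lay above all CCR2-low libraries, with a log2 difference of 0.65 (SE 0.181, limma adjusted p = 0.0309). The call rested on few reads and was lost in 8 of 16 alternative settings, with adjusted p-values of 0.0117 to 0.114 over all of them. Csf2 (chromosome 11, 54247271 to 54249667, minus strand) shares 96 of its 800 exon bases with the model Gm12223 on the other strand, and the sources used here do not say whether counting used strand.

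Csf3, the gene of G-CSF, had the widest interval of the 8 members tested between the macrophage subsets. CCR2-high libraries held 15.8, 7.63 and 6.37 TPM and CCR2-low libraries 1.62, 10.4 and 1.69 TPM, against 0, 0 and 0.0345 TPM in labelled monocytes, where the last value stands for 1 read. CCR2-low replicate 2, worked back to about 354 reads, lay inside the CCR2-high range, so the macrophage groups overlapped. The log2 difference between CCR2-high and CCR2-low was 1.25 (SE 0.499, 95% interval 0.15 to 2.35, limma adjusted p = 0.116), and without CCR2-low replicate 2 it was 1.95 with an adjusted p of 0.00179. Csf2 and Csf3 passed the filter through the macrophage libraries alone, so their difference from labelled monocytes was built into the filter and no fold is given for it.

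**Figure D1:**
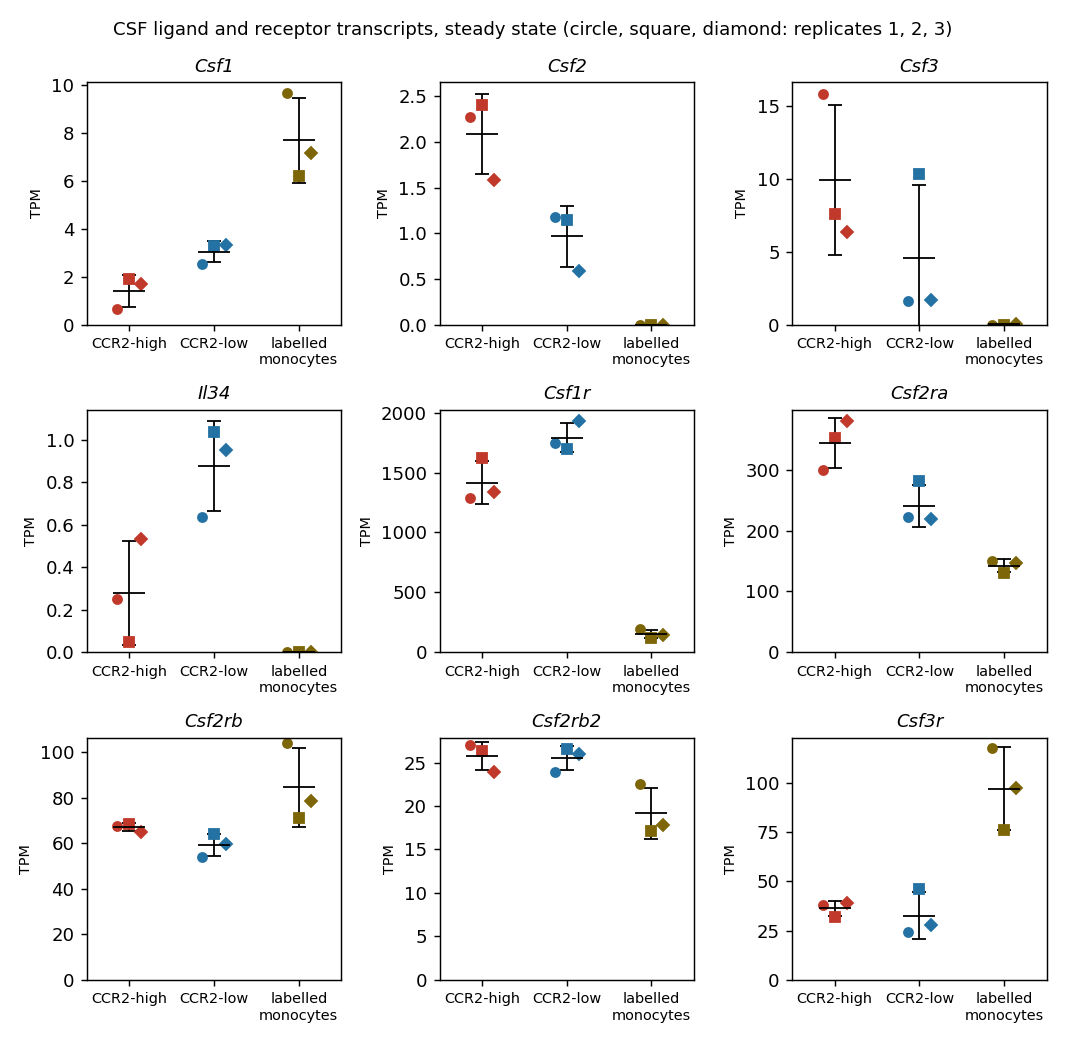
Level of each ligand and receptor transcript (TPM, linear axes from 0) in the 9 steady-state libraries, with the group mean and SD as bars. Csf1r stands between 1284 and 1933 TPM in macrophages against 121 to 190 TPM in labelled monocytes, while Csf1 and Csf3r are highest in labelled monocytes.

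Among the receptors, Csf1r was the most abundant member in every macrophage library. It lay at 1284, 1621 and 1341 TPM in CCR2-high, at 1749, 1698 and 1933 TPM in CCR2-low, and at 190, 121 and 141 TPM in labelled monocytes. Every CCR2-low library exceeded every CCR2-high library, by a log2 difference that missed the threshold (CCR2-high minus CCR2-low -0.35, SE 0.157, limma adjusted p = 0.163). Both macrophage groups were far above labelled monocytes, by log2 differences of 3.24 (SE 0.157, limma adjusted p = 1.2e-08) and 3.59 (SE 0.157, adjusted p = 4.48e-09), which are 9.45-fold and 12-fold. Csf1r (chromosome 18, 61100598 to 61132149, plus strand) shares 873 of its 5774 exon bases with Hmgxb3 on the other strand, a gene listed at no more than 25.3 TPM in these libraries.

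Csf2ra, the alpha chain that gives the GM-CSF receptor its specificity, fell in steps from CCR2-high through CCR2-low to labelled monocytes. CCR2-high libraries held 299, 352 and 381 TPM, CCR2-low libraries 222, 281 and 219 TPM, and labelled monocytes 149, 130 and 146 TPM. No group overlapped another. The difference between CCR2-high and CCR2-low was 0.52 on the log2 scale (SE 0.126, 1.43-fold, limma adjusted p = 0.018), and this call was lost in 4 of 17 alternative settings, among them quantile normalization (0.41, adjusted p = 0.0614). Against labelled monocytes, CCR2-high was higher by 1.27 (SE 0.126, adjusted p = 3.6e-06) and CCR2-low by 0.75 (SE 0.126, adjusted p = 0.000214). Monocyte markers moved the same way as Csf2 and Csf2ra, with 6 of 10 tested higher in CCR2-high and a median log2 difference of 1.48 (Ccr2 and Cx3cr1, the sort markers, are 2 of the 6). Their sums overlapped, as given above. Of 10 macrophage markers 5 were lower in CCR2-high and 1 higher, with a median of -0.52. Of all genes tested, 8.93% were higher in CCR2-high and 8.74% lower. The part of the monocyte or macrophage markers in the Csf2 and Csf2ra differences was not tested. The gene, at chromosome 19, 61223957 to 61228429, is the one whose RefSeq promoter window above ends in the doubled GAGGAAG.

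The shared beta chain Csf2rb and its near copy Csf2rb2 were not called between the macrophage subsets. Csf2rb lay at 67.5, 68.3 and 64.9 TPM in CCR2-high, 54.0, 63.8 and 59.5 TPM in CCR2-low and 104, 71.0 and 78.4 TPM in labelled monocytes. The CCR2-high and CCR2-low ranges were separate but close, with a log2 difference of 0.18 (95% interval -0.12 to 0.47, limma adjusted p = 0.409). Csf2rb2 lay at 27.0, 26.3 and 24.0 TPM in CCR2-high, 23.9, 26.5 and 26.0 TPM in CCR2-low and 22.6, 17.2 and 17.8 TPM in labelled monocytes. Its macrophage ranges overlapped, with a difference of 0.01 (95% interval -0.25 to 0.28, limma adjusted p = 0.958). Csf2rb2 was higher than in labelled monocytes in both macrophage groups, by 0.42 (SE 0.12, limma adjusted p = 0.00833) and 0.40 (SE 0.12, adjusted p = 0.00963). Csf2rb had no stable direction against labelled monocytes: its log2 differences of -0.31 (limma adjusted p = 0.051) for CCR2-high and -0.49 (adjusted p = 0.00551) for CCR2-low became 0.20 and 0.01 after median ratio scaling, and neither was then called.

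Csf3r, the G-CSF receptor, was lower in both macrophage subsets than in labelled monocytes. It lay at 38.0, 31.8 and 39.1 TPM in CCR2-high, 24.3, 46.0 and 27.7 TPM in CCR2-low, and 118, 75.9 and 97.6 TPM in labelled monocytes. The macrophage groups overlapped, because CCR2-low replicate 2, the library high in Csf3, was also the highest of the 6 macrophage libraries in Csf3r. In that library monocyte markers summed to 2688 TPM, against 1176 and 1319 TPM in the other CCR2-low libraries. Granulocyte precursor markers summed to 15.9 against 5.97 and 5.69 TPM, neutrophil markers to 607 against 481 and 443 TPM, and dendritic cell markers to 219 against 532 and 484 TPM. The part of these markers in Csf3 and Csf3r was not tested. The log2 difference between the subsets was 0.20 (95% interval -0.30 to 0.69, limma adjusted p = 0.607). Against labelled monocytes CCR2-high was lower by a log2 difference of -1.38 (SE 0.223, limma adjusted p = 0.000168) and CCR2-low by -1.58 (SE 0.223, adjusted p = 5.53e-05). The summed granulocyte precursor markers given above were also higher in labelled monocytes. Neutrophil markers summed to 138 to 221 TPM in CCR2-high, 443 to 607 TPM in CCR2-low and 517 to 762 TPM in labelled monocytes. The part of either set of markers in the Csf3r difference was not tested.

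In counts, 3 of the 8 members tested differed between CCR2-high and CCR2-low (Csf2 and Csf2ra higher, Csf1 lower in CCR2-high), where 17.7% of all 15467 genes tested did, 8.93% higher and 8.74% lower, and 5 members did not overlap, where 37.7% of genes did not. The median log2 difference was 0.19 over the members and -0.01 over all genes tested. Against labelled monocytes Csf2 and Csf3 are left out of the count, since the filter fixed their direction. Of the other 6 members tested, 5 were called for CCR2-high (3 higher, 2 lower), where 77.8% of all genes tested were (26.5% higher, 51.3% lower). For CCR2-low 6 were called (3 higher, 3 lower), where 79% of all genes were (28.4% higher, 50.6% lower). A lack of overlap with labelled monocytes was common, at 80% and 80.2% of all genes tested. The comparisons with labelled monocytes share those 3 libraries, and the comparisons share macrophage libraries too. The median of all genes lay at -0.42 and -0.40 in them, and median ratio scaling moved it up by 0.474 and 0.464. With that scaling the share of calls that were higher in macrophages went from 34.1% to 51.2% for CCR2-high and from 36% to 51.9% for CCR2-low. Apart from Csf2rb, each member called against labelled monocytes kept its direction and its call under median ratio scaling and under quantile normalization.

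**Figure D2:**
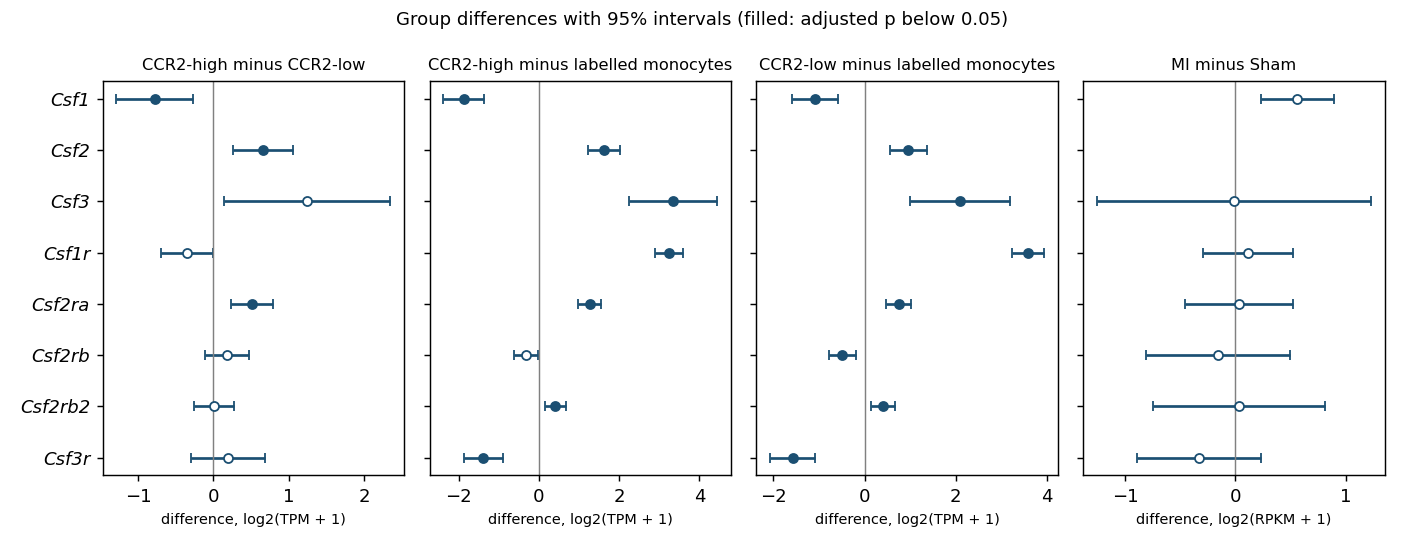
Differences on the log2(TPM + 1) or log2(RPKM + 1) scale between the groups named above each panel, with 95% intervals from limma; filled points have an adjusted p below 0.05, and genes not tested have no point. In the first panel Csf1, Csf2 and Csf2ra are filled, and in the MI panel no point is.

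In the authors' deposited table of fold changes, no member reached an adjusted p below 1 between CCR2-high and CCR2-low, and Csf2 and Il34 had none. That deposited table gives Csf1r a log2 fold change of -3.76 (labelled monocytes minus CCR2-high) and -4.04 (minus CCR2-low). It gives Csf3r 0.76 with an adjusted p of 0.483 against CCR2-high and 1.06 with 0.00495 against CCR2-low. The deposited table gives Csf1 0.76 with an adjusted p of 0.906 (labelled monocytes minus CCR2-low), so the limma call of Csf1 in that comparison was not made there. For Csf2rb the deposited table has -0.24 and 0.04, both with an adjusted p of 1.

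Ratios of 2 members within a library do not change when a whole library is multiplied by a factor, as in median ratio scaling. The ratio of Csf1r to Csf2ra, the M-CSF against the GM-CSF receptor, was 3.52 to 4.60 in CCR2-high, 6.05 to 8.84 in CCR2-low and 0.93 to 1.27 in labelled monocytes. None of these ranges overlapped, and the difference of CCR2-high minus CCR2-low was -0.87 on the log2 scale (two-sided exact permutation p = 0.1, adjusted p = 0.15 over 18 ratio comparisons). That is the smallest p that 3 libraries against 3 allow, so no ratio could pass the threshold. The ratio of alpha to beta chain, Csf2ra to Csf2rb, was 4.43 to 5.86, 3.68 to 4.40 and 1.44 to 1.87 in the same order, again without overlap. Csf2rb to Csf2rb2 was 2.50 to 2.71 in CCR2-high, 2.26 to 2.41 in CCR2-low and 4.14 to 4.60 in labelled monocytes. For this pair the labelled monocytes lay above both macrophage groups in every library, within the limit that their reads can be shared. Csf1r to Csf3r was 33.8 to 51.0, 36.9 to 72.1 and 1.45 to 1.61, where the macrophage groups overlapped and both lay above labelled monocytes.

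**Figure D3:**
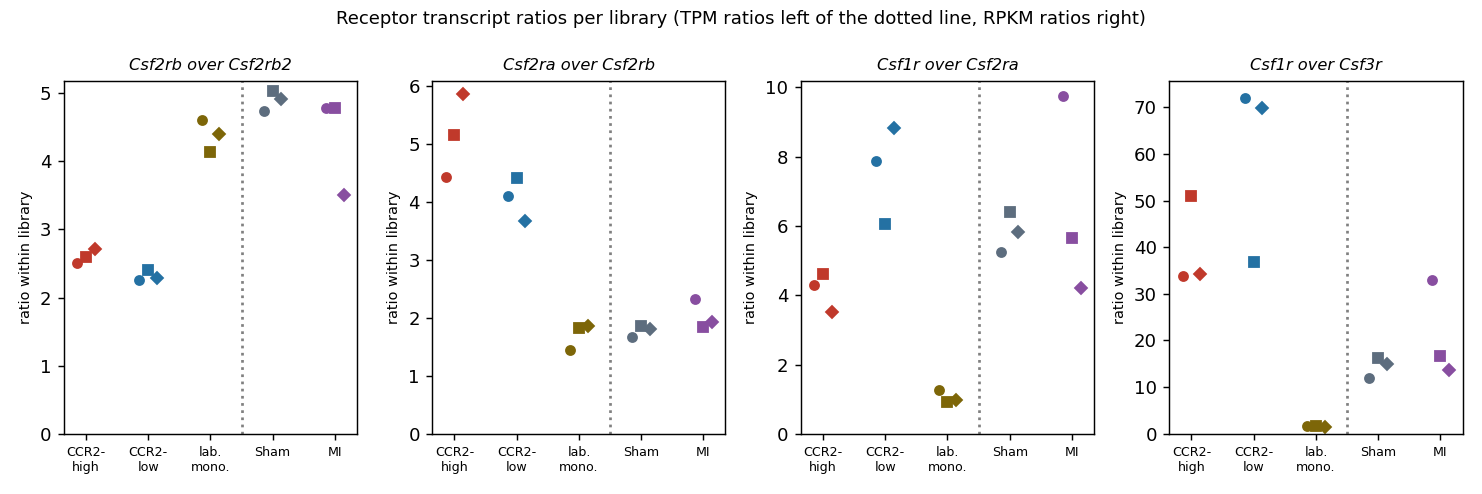
Ratio of receptor transcripts within each library (linear axes from 0; circle, square and diamond are replicates 1, 2 and 3), from TPM left of the dotted line and RPKM right of it. Levels on either side come from different gene lengths and are not compared; the Csf1r to Csf2ra ratios of CCR2-high, CCR2-low and labelled monocytes do not overlap.

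The 6 surgery libraries asked whether these transcripts in CCR2-low macrophages differ after MI. No member was called, and neither was any of the 9607 genes tested (0% called by limma, with 753 genes at an unadjusted p under 0.05). Csf1 was the member that came closest. It lay at 0.681, 0.591 and 0.902 RPKM in Sham replicates 1 to 3 and at 1.83, 1.15 and 1.67 RPKM in MI. The gene passed the filter of 1 RPKM in 3 libraries through the MI libraries alone. That fixed both its direction and its lack of overlap among the genes tested. Its being the 1 member of 7 without overlap, beside 14.6% of all genes tested, is therefore not read as a result. Without the filter the log2(RPKM + 1) difference of MI minus Sham was 0.56 (SE 0.145, limma adjusted p = 0.505 over 21809 genes). Fibroblast markers summed to 146 to 165 RPKM in Sham and 176 to 211 RPKM in MI, and neutrophil markers to 99.6 to 178 and 279 to 456 RPKM. These sums and the lower Ccr2 of the MI libraries moved with Csf1, and their part in the Csf1 values was not tested.

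The other ligands were low or scattered in the surgery libraries. Csf2 was listed at 0.101, 0.217 and 0.232 RPKM in Sham and at 0.423, 0 and 0.295 RPKM in MI, which came to about 6, 10 and 14 and to about 22, 0 and 17 reads. Il34 lay between 0.0523 and 0.133 RPKM in all 6 libraries, on about 7 to 17 reads. The groups overlapped for both genes, and neither passed the filter. Csf3 lay at 5.01, 1.37 and 8.27 RPKM in Sham and 2.45, 3.94 and 6.54 RPKM in MI, a spread within each group that was wider than the difference between them (-0.01, 95% interval -1.25 to 1.23).

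The receptors overlapped between MI and Sham. Csf1r lay at 631, 738 and 639 RPKM in Sham and at 828, 745 and 608 RPKM in MI (log2 difference 0.11, 95% interval -0.30 to 0.52, limma adjusted p = 0.911). Csf2ra lay at 120, 115 and 110 RPKM in Sham and at 85.0, 132 and 144 RPKM in MI (0.03, interval -0.46 to 0.52). Csf2rb lay at 72.2, 62.3 and 60.8 RPKM in Sham and at 36.7, 71.7 and 74.8 RPKM in MI (-0.15, interval -0.81 to 0.50). For Csf2ra and Csf2rb the value of MI replicate 1 lay below all 5 other libraries. Csf2rb2 lay at 15.2, 12.4 and 12.4 RPKM in Sham and at 7.67, 15.0 and 21.4 RPKM in MI (0.03, interval -0.75 to 0.81). Csf3r lay at 53.0, 45.2 and 42.6 RPKM in Sham and at 25.0, 44.9 and 44.8 RPKM in MI (-0.33, interval -0.89 to 0.23). With intervals of this width, the 6 libraries do not show that the groups are alike.

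MI replicate 1 was the lowest of the 6 libraries in Csf2ra, Csf2rb, Csf2rb2 and Csf3r and the highest in Csf1r and Csf1. Its ratio of Csf1r to Csf3r was 33.1, against 11.9 to 16.3 in Sham and 16.6 and 13.6 in MI replicates 2 and 3. In that library monocyte markers had their lowest sum (299 RPKM, against 511 to 744 in the other 5), Ccr2 was at 8.09 RPKM, and dendritic cell markers had their highest sum (155 RPKM, against 8.38 to 29.7). Neutrophil markers also had their highest sum there (456 RPKM, against 99.6 to 315), while Csf3r was lowest. The part of all these markers in the receptor values was not tested. Without MI replicate 1 the Csf2rb difference was 0.17 in place of -0.15, and no member was called.

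**Figure D4:**
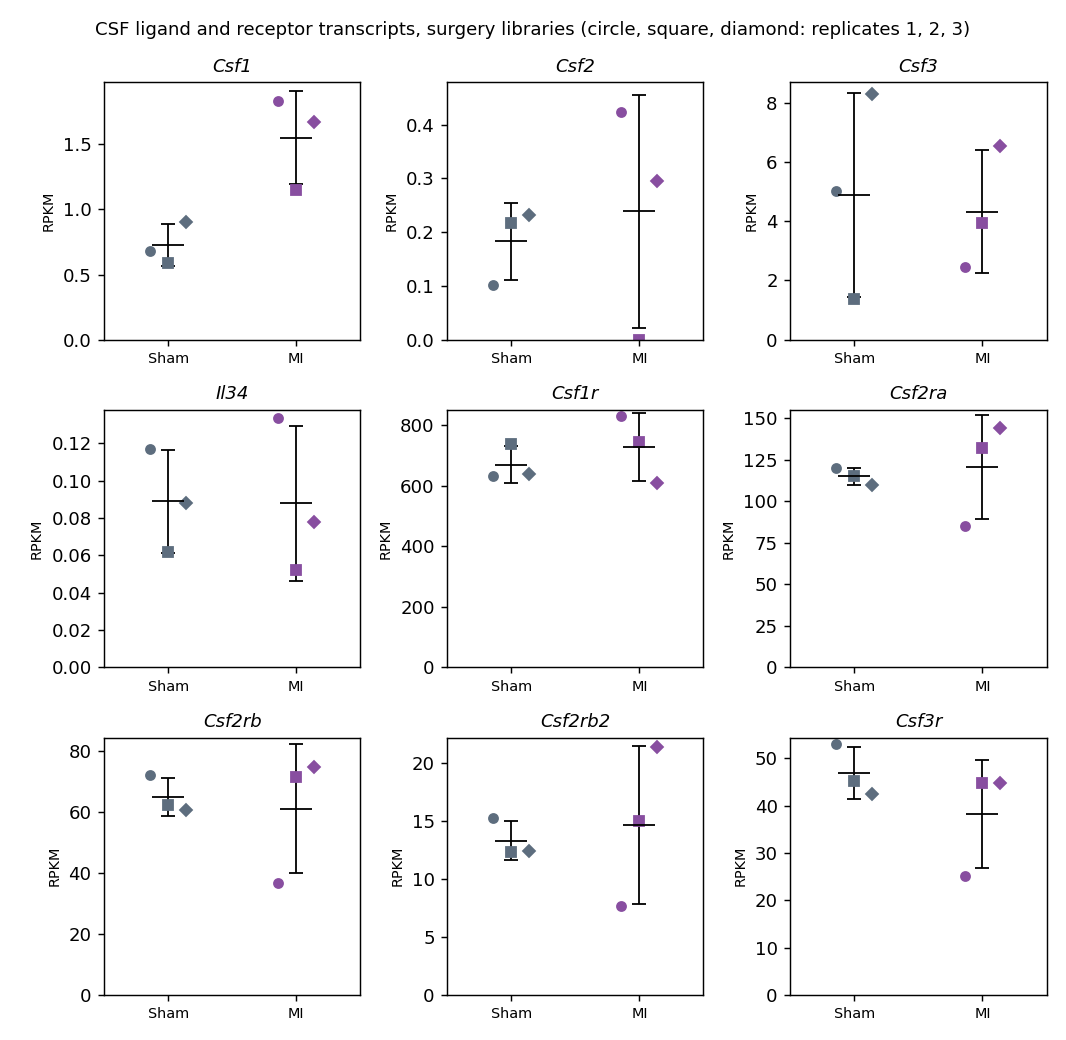
Level of each ligand and receptor transcript (RPKM, linear axes from 0) in the 6 surgery libraries, with the group mean and SD as bars. MI replicate 1 (circle) is the lowest library in Csf2ra, Csf2rb, Csf2rb2 and Csf3r, and the Csf1 values of MI and Sham do not overlap.

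The signalling genes downstream of the receptors were read from lists of known pathway genes, with their counts beside the background of 17.7% for CCR2-high against CCR2-low. Of 19 tested adapters and kinases of CSF1R, 3 were called, each higher in CCR2-high, and median ratio scaling made this 6. Among them Fgr, a kinase of the SRC family, averaged 49.7 ± 11.0 TPM in CCR2-high (SD, n = 3) against 16.1 ± 11.9 TPM in CCR2-low (limma adjusted p = 0.00823). Pik3ap1, an adapter of phosphoinositide 3-kinase, averaged 144 ± 1.61 against 105 ± 13.2 TPM (limma adjusted p = 0.0311). Of 9 tested JAK and STAT relays, 0 were called by limma. Of 11 tested negative regulators 2 were called, both higher in CCR2-high: Socs1, an inhibitor of JAK signalling, at 15.0 ± 2.11 against 8.97 ± 0.299 TPM (limma adjusted p = 0.0091), and Adam17, the protease that sheds CSF1R from the cell surface, at 64.0 ± 7.15 against 42.8 ± 6.86 TPM (adjusted p = 0.0334).

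Most of the genes that answer to these cytokines were not called between the subsets, and those called were higher in CCR2-high. Of all genes tested, 8.93% were higher in CCR2-high and 8.74% lower. Of 8 tested response genes of CSF1, 3 were called, each higher in CCR2-high: the cyclins Ccnd2 (log2 difference 1.40, SE 0.216, limma adjusted p = 0.00179) and Ccnd1 (0.73, SE 0.218, adjusted p = 0.0424) and the urokinase gene Plau (0.71, SE 0.136, adjusted p = 0.00533). Of 7 tested response genes of GM-CSF and STAT5, 2 were called, both higher: Pparg, the nuclear receptor that GM-CSF induces in alveolar macrophages, at 45.4 ± 16.7 against 13.4 ± 2.85 TPM (limma adjusted p = 0.00113), and the kinase gene Pim1 at 38.5 ± 6.36 against 22.0 ± 5.30 TPM (adjusted p = 0.0174). Pparg is also an adipocyte gene. Adipocyte markers summed to 327 to 665 TPM in CCR2-high and 245 to 266 TPM in CCR2-low, while of 5 tested 1 was higher (Lpl, which macrophages also express) and 3 were lower (Adipoq, Cfd and Cidec) in CCR2-high, and their part in the Pparg difference was not tested. Of the 8 adipocyte markers, 3 averaged under 1 TPM in CCR2-high and 0 in CCR2-low, so the filter may have fixed the direction of some. The median log2 difference was 0.21 over the CSF1 list and 0.23 over the GM-CSF list. Against labelled monocytes, where 26.5% of all genes tested were higher in CCR2-high and 28.4% in CCR2-low, all 7 GM-CSF response genes were higher in both, with the same counts under median ratio scaling and quantile normalization. For 4 of those 7 the filter was passed through the macrophages alone, which fixed their direction. Of the CSF1 list 6 were higher, 2 of them with their direction fixed in that way, and 2 lower in both comparisons; the immediate early genes Egr2, Fos and Egr1 led those that were higher, and Myc and Ccnd2 were the ones lower.

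Sdc1, whose product syndecan-1 also binds IL-34, averaged 19.0 ± 4.83 TPM in CCR2-high and 6.89 ± 1.61 TPM in CCR2-low (limma adjusted p = 0.00168). Il3ra, the alpha chain of the IL-3 receptor that pairs with the beta chains, averaged 25.3 ± 4.92 against 39.3 ± 3.14 TPM (limma adjusted p = 0.0144), opposite in direction to Csf2ra. Of 8 tested genes of the other receptors in CSF1R's family of tyrosine kinases and of their ligands, 4 were called and 4 were not. Of all genes tested 17.7% were called, 8.93% higher and 8.74% lower. The ligand gene Pdgfb was higher in CCR2-high, and the ligand genes Pdgfc and Kitl and the receptor gene Pdgfrb were lower. Median ratio scaling and quantile normalization each made this 2 higher and 3 lower. Pdgfrb, which marks mural and stromal cells, averaged 0.647 ± 0.439 against 2.70 ± 0.716 TPM, and moved with the fibroblast and endothelial markers. With its CCR2-high mean under the filter value of 1 TPM, the filter may have fixed the direction of Pdgfrb. Kit itself averaged 110 ± 32.6 TPM in labelled monocytes and 0.810 ± 0.344 TPM in CCR2-high.

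Of 12 transcription factors known for the control of CSF receptor genes, 2 were called between the subsets, close to the 17.7% of all genes tested. Both were lower in CCR2-high, as were 8.74% of all genes tested. Of these, Gata2, a factor of blood progenitors and mast cells, averaged 0.537 ± 0.168 TPM in CCR2-high and 1.70 ± 0.755 TPM in CCR2-low (limma adjusted p = 0.0189). Against labelled monocytes 6 of the 12 rose and 5 fell in CCR2-high, where 26.5% of all genes tested were higher and 51.3% lower, and median ratio scaling made this 7 and 4. The filter fixed the direction of 2 that rose and 1 that fell. Gfi1, a factor of granulocyte development, averaged 44.5 ± 4.18 TPM in labelled monocytes and 0.0214 ± 0.0263 TPM in CCR2-high. No CCR2-high library brought Gfi1 to the filter value of 1 TPM, so its direction is not read as a result. Between MI and Sham, 0 genes of any of these lists were called by limma, as was the case for all genes tested.

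The genes most like each member over the 9 steady-state libraries were named as a description, by Pearson's r of log2(TPM + 1); the differences between the 3 groups enter every such r. Csf2ra was most like Got1, Ildr1 and Ifih1 (r = 0.989, 0.989 and 0.987). Csf2 was most like Nostrin, Slc15a3 and the chemokine gene Ccl3 (0.978, 0.974 and 0.974). Csf3 was most like Slc16a3, Clec4e and Fosl1 (0.985, 0.973 and 0.973). Csf3r was most like the proton channel gene Hvcn1, Adap1 and Lmtk2 (0.991, 0.986 and 0.985). For Csf2rb one of the 3 genes was Plcg2 (0.959), a member of the CSF1R adapter list.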

How the data were processed

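RNA-seq values of 15 libraries were used as the authors deposited them: TPM on the linear scale for the 9 steady-state libraries and RPKM for the 6 surgery libraries, per the file headers. Per the submitters' processing notes, the genome build was mm10; the sources used here do not give aligner, annotation or counting. TPM columns summed to 1000000 and RPKM columns to 382465 to 423718. The authors' deposited log2 fold changes and adjusted p-values were printed only where named. Depth is not stated; read numbers were worked back from low values, of which 50.1 to 69.2% (TPM) and 84.4 to 89.0% (RPKM) were whole within 0.05, and the surgery totals came to 57.5 to 75.5 M reads. The members, the gene lists and the tests were chosen with earlier results of these data known. Groups were compared with limma 3.58.1 (R 4.3.3) on log2(value + 1), eBayes with trend. Tested genes had a value of at least 1 in 3 or more libraries (15467 in the steady state, 9607 in surgery), with two-sided Benjamini-Hochberg adjustment over all of them and calls below 0.05. The 9 steady-state libraries shared 1 fit, and the tables were never compared. The fit was tested on simulated data. Named genes were the members, up to 4 genes per list by smallest p, the 3 most alike genes per member (SD of at least 0.5) and the sort markers; some genes that meet this rule, though counted, are not reported here by name. Alternatives were pseudocount 0.1, no filter, a mean of at least 5, robust eBayes, median ratio scaling, quantile normalization, a replicate block, the compared groups alone, RPKM rescaled to TPM and leaving out each library. Coordinates are from GENCODE M21 on GRCm38 and promoters from RefSeq.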

Additional observations from a re-analysis of the deposited data

How the results depend on the processing

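Between CCR2-high and CCR2-low the 3 member calls were the least stable: 1 remained with the compared groups alone, and leaving out 1 library left 0 to 4. With a mean of at least 5 the call of Csf2ra remained, while Csf1 and Csf2 were not tested. The count over all genes was 2733, 1795 under the replicate block, and 1481 to 3453 when 1 library was left out. Csf1 lost its call without the filter (adjusted p = 0.109), and Csf2 with pseudocount 0.1 (0.093). For CCR2-low against labelled monocytes 5 members were called with a mean of at least 5, because fewer members were tested. For MI against Sham the all-gene count was 0 to 5 over libraries left out, 5 without MI replicate 3. Csf2rb reversed under scaling against labelled monocytes: 0.203 (median ratio) and 0.046 (quantile) for CCR2-high, and 0.012 (median ratio) for CCR2-low, where quantile normalization gave -0.064 and no call. In MI against Sham, Csf3 turned to 0.039 with pseudocount 0.1 and 0.052 when rescaled to TPM. With 1 library left out, Csf2rb2 ran from -0.03 to 0.062 between the macrophage subsets, and in MI against Sham Csf3 ran from -0.564 to 0.418, Csf2ra from -0.118 to 0.26, Csf2rb from -0.333 to 0.171 and Csf2rb2 from -0.277 to 0.406; none of these was called. Same-numbered libraries did not deviate together (correlations of -0.362 to 0.033 in the steady state, -0.57 to 0.064 by title and -0.505 to 0.17 by description number in surgery; 0 of 9, 0 of 6 and 2 of 6 libraries correlated best with their own number), so the numbers were not taken to pair them; under the block Csf1 was not called between CCR2-high and CCR2-low (adjusted p = 0.0764) and 2 members were. Where no cause is named above, the cause was not tested. Depth limits Csf2 and Il34 most, on at most about 44 and 105 reads in a library.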
